A study of Rattus norvegicus with 6 samples.

Results

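Solute carriers are membrane proteins that move ions, sugars, amino acids, nucleosides, metals and organic anions across the cell surface and the membranes of organelles. The solute carrier genes were taken as every gene of the array whose symbol starts with Slc and a number, leaving out Slc1a2, Slc1a3 and Slc8a1, and of a gene's probe sets the brightest on average over the 6 arrays stood for it. This gave 225 genes of 48 numbered families among the 10411 genes measured. The rule uses the symbol and the mean signal, and no difference between diets.

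The tissue was whole cerebral resistance artery of Dahl rats (middle and posterior cerebral and posterior cerebellar branches), a rat line bred for the response of its blood pressure to dietary salt; the labels do not name a substrain. The high salt group was put on chow with 8% NaCl at 7 weeks of age, for 12 weeks by the protocol and 11 weeks by a second label, and gave 3 arrays. The low salt group was put on chow with 0.4% NaCl at the same age for 12 weeks and gave 3 arrays; both groups had eaten the 0.4% chow before the study. Each array held RNA pooled from 3 rats (9 rats per diet), amplified in a kit with 2 cycles, and whether a pool was snap frozen or kept in a preservative is not recorded by sample. The question was which transcripts of the artery differ after a salty diet.

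Carriers that are coupled to sodium use its inward gradient to pull in a second substrate or to push out calcium, protons or magnesium, while exchangers and uniporters follow the gradients of their own substrates. In brain arteries, the endothelium carries glucose and amino acids into the brain and organic anions out of it. Smooth muscle uses bicarbonate, chloride and calcium carriers to set its pH, chloride and tone, and the meningeal cells and astrocyte endfeet that cling to dissected arteries have carriers of their own.

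Values are deposited log2 signals of the authors' RMA processing, and a difference is the mean of the high salt arrays less that of the low salt arrays, in log2 units, with limma's moderated standard error (SE) after ±. All p-values are limma's. Over all probe sets the quartiles of the mean signal were 6.60, 8.13 and 9.54. The signal of a probe set depends on its probe sequences and RMA values have no zero, so a rank by signal orders probe sets and not amounts of transcript.

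Among the 225 carriers, 51 (22.7%) had a mean signal above the upper quartile of all probe sets, against 30.8% of all genes, and 40 (17.8%) were below the lower quartile, against 17.2% of all genes. The means ran from 4.86 to 12.8 with a median of 8.50, against a median of 8.62 over all genes. The brightest carrier was Slc6a20a, a sodium-coupled carrier of proline and other imino acids known from meninges and epithelia, with a mean of 12.81. Next came Slc25a3, the mitochondrial phosphate carrier, at 12.50, and the ADP/ATP carriers Slc25a4 at 12.00 and Slc25a5 at 11.98. Slc3a2, the heavy chain that brings several amino acid carriers to the cell surface, followed at 11.88, then Slc13a4, a sodium-coupled sulphate carrier, at 11.74, Slc38a2, a sodium-coupled carrier of small neutral amino acids, at 11.71, and Slc22a8, an organic anion carrier, at 11.45. The brightest probe sets thus belonged to carriers of the mitochondrion and to surface carriers of amino acids, sulphate and organic anions.

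**Figure D1:**
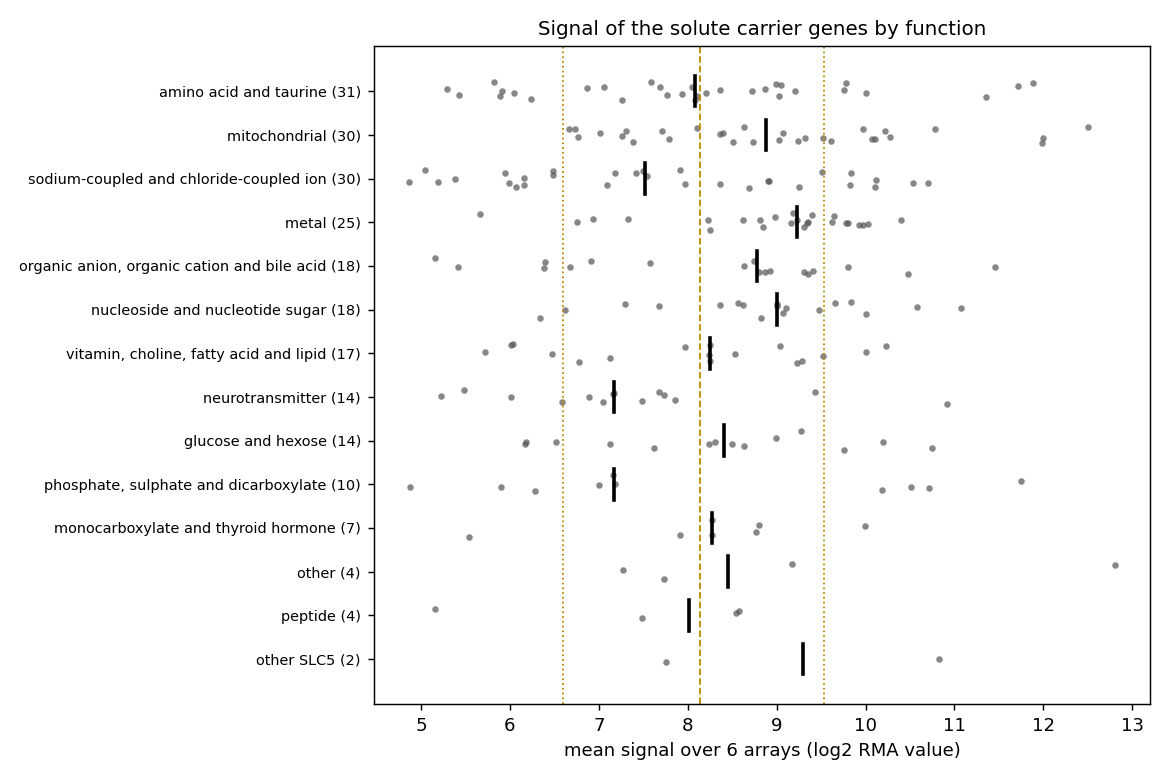
Mean signal over the 6 arrays (horizontal axis, log2 RMA value) of 224 genes (all but Slc4a1ap, which is not a carrier), 1 point per gene, in rows by function. Black bars are the medians of the rows; dotted and dashed lines mark the quartiles of all probe sets at 6.60, 8.13 and 9.54. Metal carriers had the row median of 9.23 and neurotransmitter carriers that of 7.17.

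By function, 21 of 25 metal carriers, 14 of 18 nucleoside and nucleotide sugar carriers and 20 of 30 mitochondrial carriers were above the median signal of all probe sets. Only 2 of 14 neurotransmitter carriers were, Slc6a13, which takes up GABA and taurine, and Slc6a9, which takes up glycine. Of the 30 ion carriers 12 were above that median, and 11 were below the lower quartile, among them Slc12a1 at 4.86 and Slc12a3 at 6.16, the salt carriers known from the kidney tubule. The ion carriers with the highest signals were Slc12a2, which loads cells with sodium, potassium and chloride, at 10.70, the potassium-dependent sodium-calcium exchanger Slc24a3 at 10.53 and the anion exchanger Slc4a3 at 10.12.

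Between diets, 0 of 225 carriers passed the adjusted p threshold of 0.05 in limma's fit over all 15866 probe sets, where the share called was 0%. The lowest adjusted p of a carrier was 0.803. At an unadjusted p below 0.05, 14 carriers (6.22%) were higher after high salt, against a background of 5.72% of all genes, and 2 (0.889%) were lower, against 0.711%. Every high salt array was above every low salt array for 17 carriers (7.56%), against 8.64% of all genes, and below for 9 (4%), against 3.32%. All of these shares lay near those of all genes. The differences ran from -0.78 to 1.56, with 137 carriers (60.9%) higher, against 6250 of the 10411 genes, and a median of 0.06, against 0.07 over all genes. The side of that median followed the scaling of the arrays, since it was -0.08 after centring each array on its median, against -0.06 over all genes. On centred values 9 carriers were higher at an unadjusted p below 0.05, against 2.96% of all genes, and 6 were lower, against 2.55%. Every centred high salt array was above every low salt array for 8 carriers, against 4.01% of all genes, and below for 34 (15.1%), against 13.9%.

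**Figure D2:**
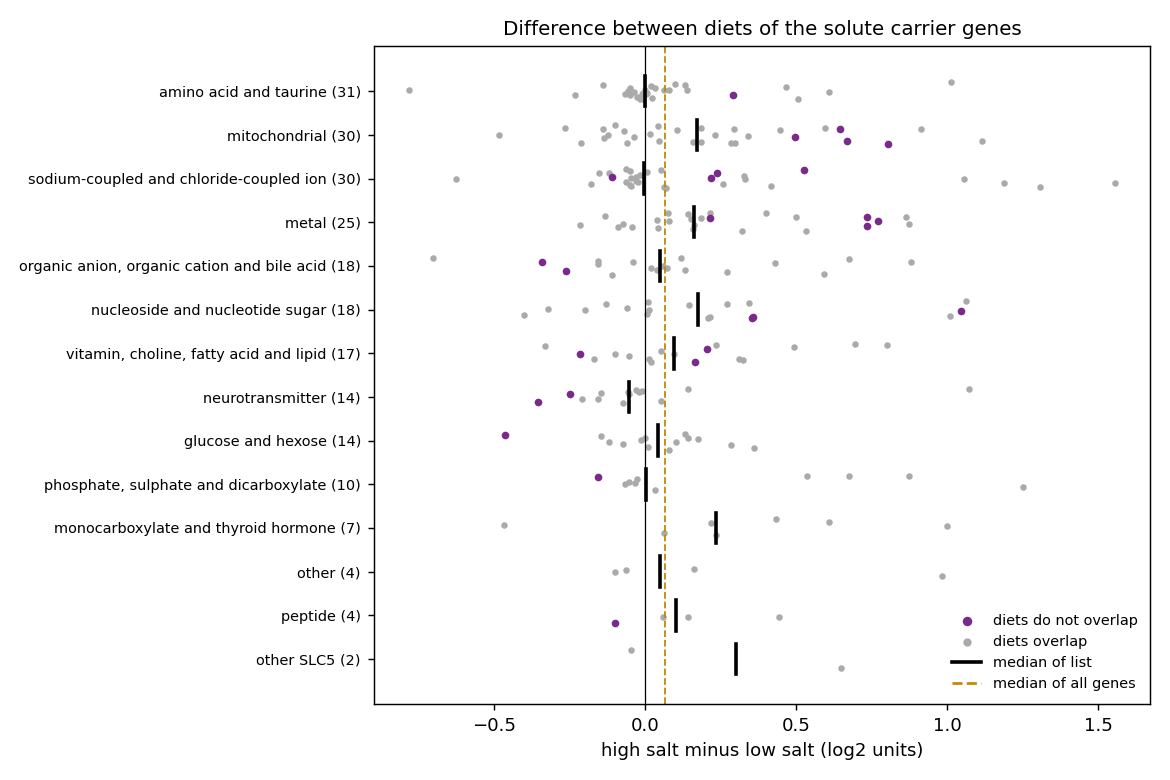
High salt minus low salt (horizontal axis, log2 units) of 224 genes (all but Slc4a1ap), 1 point per gene, in rows by function. Purple points are the 26 carriers whose diets did not overlap, black bars the row medians, and the dashed line the median of all genes at 0.07. The medians of the rows drawn lay between -0.05 and 0.30.

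The arrays of a diet did not vary alike, and this bears on each difference. Over the 225 carriers the 3 pairs of high salt arrays correlated at 0.979 to 0.987, and the 3 pairs of low salt arrays at 0.890 to 0.950. Low salt replicate 2 correlated with the 3 high salt arrays at 0.973 to 0.983, above its correlations with the low salt arrays of replicate 1 at 0.890 and replicate 3 at 0.918. The range over the 3 arrays of a diet passed 1 log2 unit for 10 carriers (4.44%) on high salt, against 3.69% of all genes, and for 55 (24.4%) on low salt, against 22.6% of all genes. These correlations are descriptions over carriers measured on the same arrays.

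**Figure D3:**
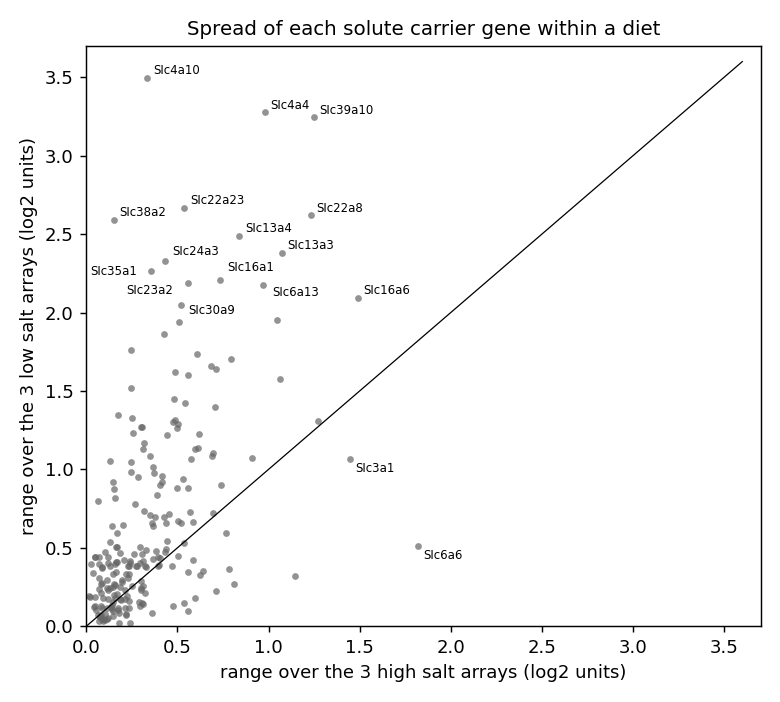
Range of each carrier over the 3 high salt arrays (horizontal axis) against its range over the 3 low salt arrays (vertical axis), both in log2 units, 1 point per gene. The line marks equal ranges; the genes with the widest ranges are named. On low salt 15 carriers had a range above 2, and on high salt 0 did.

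The mitochondrial carriers held the lowest p-values. Slc25a20 exchanges acylcarnitine for carnitine across the inner membrane and so brings long-chain fatty acids in for oxidation; its signals were 8.95, 9.15 and 9.11 on the high salt arrays, against 8.24, 8.66 and 8.31 on the low salt arrays. All high salt arrays were above all low salt arrays, by 0.67 ± 0.14 on average (limma, unadjusted p = 0.00373, adjusted p = 0.803). Slc25a39, a carrier needed for glutathione uptake into mitochondria, had 9.998, 9.79 and 9.79 on high salt and 9.28, 9.34 and 9.46 on low salt. Its diets did not overlap and were 0.50 ± 0.11 apart (limma, unadjusted p = 0.00388). Slc25a1 exports citrate for lipid synthesis, and had 10.70, 10.60 and 10.55 on high salt and 9.40, 10.32 and 9.72 on low salt, a difference of 0.81 ± 0.24 with no overlap. Low salt replicate 2 lay nearest to the high salt arrays for Slc25a20 and Slc25a1 but not for Slc25a39.

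The promoters of Slc25a39 and Slc25a20 are shown because these carriers had the lowest p-values of the family. Both are from RefSeq, build GRCr8, 250 bases before to 50 after the gene's start, written in the direction of the gene with GC boxes (GGGCGG or its reverse complement) in capitals. The windows lie at chr10:87866924-87867223 on the minus strand and chr8:118243323-118243622 on the plus strand.
Slc25a39: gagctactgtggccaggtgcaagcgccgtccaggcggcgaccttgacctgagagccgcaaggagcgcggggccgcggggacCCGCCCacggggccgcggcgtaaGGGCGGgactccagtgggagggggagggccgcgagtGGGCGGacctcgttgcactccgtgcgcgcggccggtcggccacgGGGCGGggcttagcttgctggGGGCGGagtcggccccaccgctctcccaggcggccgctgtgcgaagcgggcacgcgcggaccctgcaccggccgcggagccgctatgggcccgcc
Slc25a20: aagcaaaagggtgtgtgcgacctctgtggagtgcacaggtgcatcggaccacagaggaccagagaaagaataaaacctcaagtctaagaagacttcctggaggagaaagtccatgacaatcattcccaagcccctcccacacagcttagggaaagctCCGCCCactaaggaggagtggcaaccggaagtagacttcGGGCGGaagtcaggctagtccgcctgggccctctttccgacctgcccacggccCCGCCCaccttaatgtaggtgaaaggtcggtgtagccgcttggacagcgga
The window of Slc25a39 held 5 GC boxes and that of Slc25a20 held 3. A GC box stood in 57.2% of the 201 promoters of 190 carriers that RefSeq's table held, against 33.1% of all 33469 promoters. A CCAAT motif on either strand stood in 37.3% of the carriers' promoters, against 37.5% of all, and ACGTG, the core of the sites that hypoxia-inducible factors bind, in 29.4%, against 19.3%. The 33469 promoters were not restricted to genes of the array, while the carriers were, so these shares compare unlike sets. None of these 3 motifs contains another. A match describes these letters and is not a measured binding site.

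Of the 30 mitochondrial carriers, 20 (66.7%) were higher, against 73.3% of all genes above the median signal, where 20 of the 30 lay. Of the 30, 5 (16.7%) had an unadjusted p below 0.05, all higher, against 5.72% of all genes and 8.00% of all genes above the median signal, and 0 were called. Their median was 0.17, or 0.08, 0.31 and 0.12 with low salt replicates 1, 2 and 3 left out in turn, 0.04 after median centring and -0.01 after quantile normalization. Beside Slc25a20, Slc25a39 and Slc25a1, those at p below 0.05 were Slc25a13, the aspartate-glutamate carrier, with 0.92 ± 0.34, and Slc25a25, an ATP-magnesium and phosphate carrier, with 1.11 ± 0.42; both had diets that overlapped. Slc25a4, the ADP/ATP carrier of muscle, had 12.16, 12.47 and 12.33 on the high salt arrays, against 10.95, 12.08 and 12.00 on the low salt arrays. Its diets did not overlap, but low salt replicate 1 was more than 1 unit below both other low salt arrays, and the difference was 0.64 ± 0.32 with all arrays and 0.28 without that array. Its paralogue Slc25a5 had 11.90, 12.51 and 12.42 on high salt and 10.71, 12.45 and 11.89 on low salt, where replicate 1 was again the lowest, and its diets overlapped. Slc25a3 had 12.72, 12.21 and 13.01 on high salt and 11.46, 13.16 and 12.43 on low salt, a difference of 0.30 ± 0.46 that lay within the low salt range of 1.70.

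**Figure D4:**
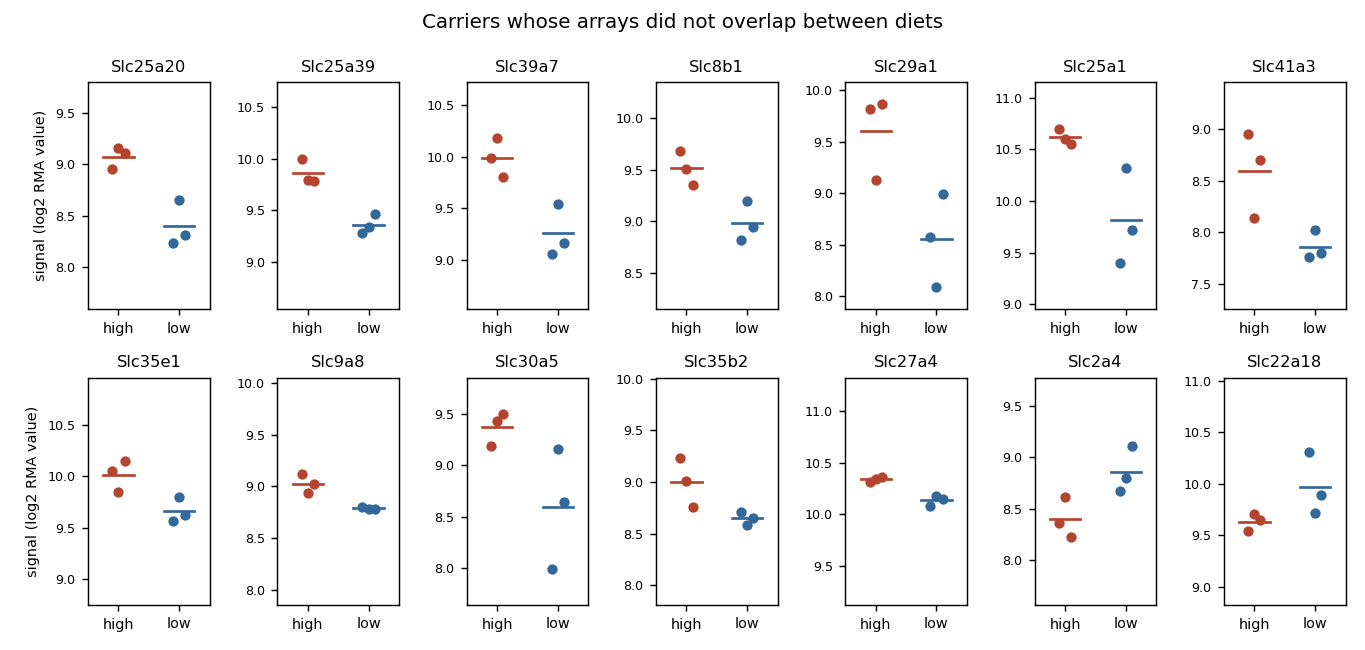
Signal (vertical axis, log2 RMA value; each panel spans the same number of units) on the 3 high salt (red) and 3 low salt (blue) arrays of 14 carriers above the median signal whose diets did not overlap. Points are arrays and bars are diet means. In 12 panels all high salt arrays are above the low salt arrays; in those of Slc2a4 and Slc22a18 they are below.

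Among ion carriers, Slc8b1, which lets calcium out of mitochondria in exchange for sodium, had 9.68, 9.51 and 9.35 on the high salt arrays, against 8.82, 9.19 and 8.94 on the low salt arrays. The diets did not overlap and the difference was 0.53 ± 0.14 (limma, unadjusted p = 0.0112, adjusted p = 0.803). Slc9a8, a sodium-proton exchanger of Golgi and endosomes, had 9.12, 8.94 and 9.02 on high salt and 8.80, 8.79 and 8.78 on low salt. These diets did not overlap either, at a difference of 0.24 ± 0.09, small beside those above but with 3 low salt arrays within 0.02 of each other. Slc12a9 of the cation-chloride family was the third ion carrier with all high salt arrays above, at 0.22 ± 0.12. These were 10% of the 30 ion carriers, near the 8.64% of all genes.

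Most of the carriers that set pH, chloride and sodium in arterial muscle did not separate the diets, like most genes of the array. Slc12a2 had 10.78, 10.62 and 11.10 on high salt and 10.02, 11.32 and 10.39 on low salt, so that low salt replicate 2 was the highest of all 6 arrays and replicate 1 the lowest. Its difference was 0.26 ± 0.35 with all arrays and -0.02 without low salt replicate 1. Slc4a7, the electroneutral sodium-bicarbonate carrier that loads smooth muscle and endothelium with base, had 9.73, 9.55 and 10.12 on high salt and 9.23, 10.02 and 10.29 on low salt, a difference of -0.05 ± 0.31. Both the highest and the lowest array of Slc4a7 were on low salt, replicates 3 and 1. Slc4a3, which exchanges chloride for bicarbonate, had 10.15, 9.74 and 9.54 on high salt and 11.01, 9.87 and 10.42 on low salt, a difference of -0.62 ± 0.32 with an overlap at low salt replicate 2. Of 13 measured carriers listed for ion balance of vascular smooth muscle, 7 were higher and 0 were called. Slc8b1 (above), 1 of the 13 (7.69%), had no overlap and an unadjusted p below 0.05. Over all genes 8.64% had every high salt array above, and 5.72% were higher at that p. Their median was 0.26, but 0.08, 0.48 and 0.17 with low salt replicates 1, 2 and 3 left out in turn, 0.02 after quantile normalization and -0.06 against low salt replicate 2 alone. Over all 30 ion carriers 15 were higher and 15 lower, with a median of 0.00.

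The widest split within a diet was that of sodium-bicarbonate carriers. Slc4a4, the electrogenic form known from astrocytes and epithelia, had the family's largest difference, with 9.69, 10.68 and 10.49 on the high salt arrays, against 7.60, 10.88 and 7.71 on the low salt arrays. Low salt replicate 2 was above all high salt arrays while replicates 1 and 3 were about 2 units or more below them, so the difference of 1.56 ± 0.93 had a limma unadjusted p of 0.145. A second, dimmer probe set of Slc4a4 gave 0.76 ± 0.33. Slc4a10, which brings in sodium and bicarbonate and is known from neurons and choroid plexus, had 8.34, 8.07 and 8.00 on high salt and 5.87, 9.24 and 5.74 on low salt, and had the widest low salt range of any carrier, 3.50. Slc24a3 had 10.95, 11.22 and 11.38 on high salt and 9.08, 11.41 and 9.15 on low salt, with low salt replicate 2 again on top. A second probe set of Slc24a3, dim at a mean of 6.32, gave 0.01 ± 0.11. In all 3 genes low salt replicates 1 and 3 were the lowest arrays and replicate 2 the highest.

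This order of arrays was looked for in all carriers after their values were seen, so the genes of this and the next paragraphs that show it are a description. In 18 carriers (8%) low salt replicate 2 was more than 1 unit above both other low salt arrays, against 366 genes (3.52%) over all. Replicate 2 was not the only low salt array to stand apart. Low salt replicate 1 was more than 1 unit below both others in 7 carriers (3.11%), against 663 genes (6.37%) over all. In all 18, every high salt array was above low salt replicates 1 and 3. The 18 were the ion carriers Slc4a4, Slc4a10, Slc24a3 and Slc9a2, the amino acid and GABA carriers Slc6a20a, Slc6a13 and Slc38a2, the sulphate carrier Slc13a4, the monocarboxylate family members Slc16a1, Slc16a6 and Slc16a12, the vitamin carriers Slc23a2 and Slc5a6, and Slc2a13, Slc15a2, Slc22a23, Slc25a44 and Slc39a10. High salt minus low salt ran from 0.14 to 1.56 in them with all arrays, from 0.58 to 2.63 without low salt replicate 2, and from -1.10 to -0.17 against low salt replicate 2 alone. The direction in these 18 was thus set by which low salt arrays the high salt arrays were compared with. With all arrays, second probe sets of Slc22a23 and Slc23a2 gave -0.11 ± 0.09 and -0.15 ± 0.16. Those of Slc16a12, Slc16a6 and Slc2a13 gave 0.06 ± 0.20, 0.50 ± 0.62 and 0.22 ± 0.19. Without low salt replicate 2, limma gave Slc4a10 2.33 ± 0.14, Slc24a3 2.07 ± 0.16 and Slc6a20a 1.56 ± 0.12, each with an adjusted p of 0.0501. The 18 were picked by how far that array lay from the other low salt arrays. Leaving it out therefore narrows their spread and widens their difference, and these values are no test of diet. In that fit too 0 carriers were called at 0.05. In that fit 52 carriers (23.1%) were higher at an unadjusted p below 0.05, against 15.3% of all genes, and 8 (3.56%) were lower, against 4.71%. Arrays were also weighted by their fit, at 0.343, 0.496 and 1.79 for low salt replicates 1, 2 and 3, so replicate 1 counted least. With these weights 35 carriers (15.6%) were higher at that threshold, against 8.86% of all genes, and 5 (2.22%) were lower, against 1.76%.

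**Figure D5:**
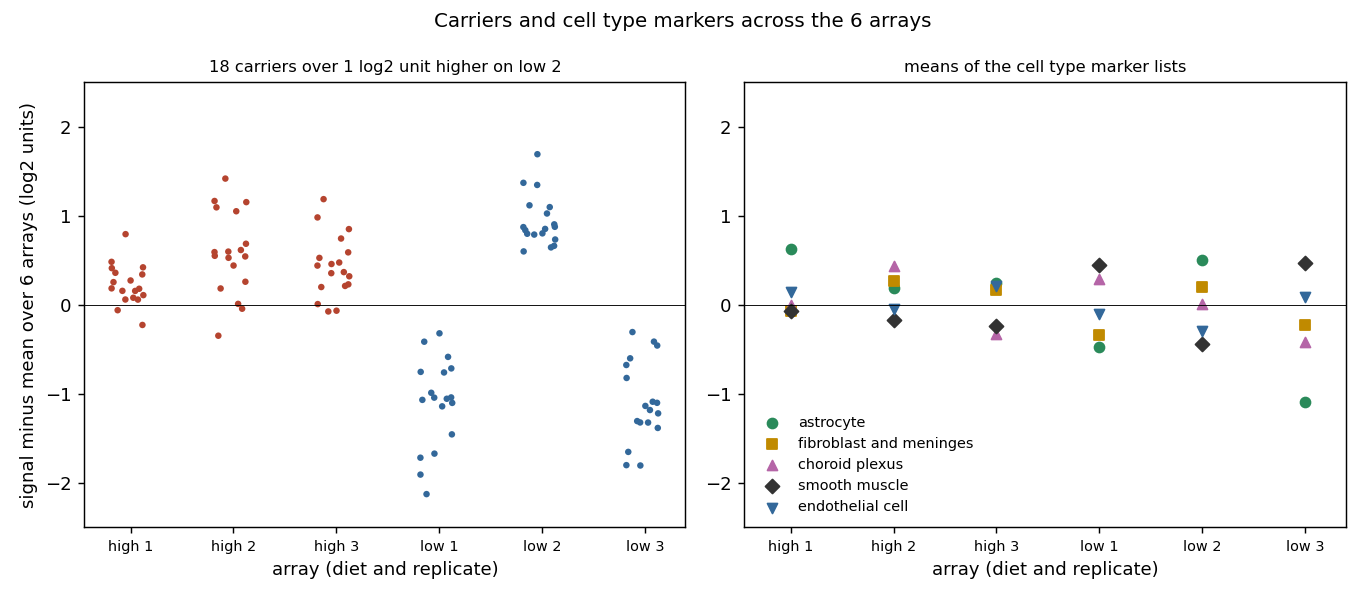
Left, the 18 carriers on each of the 6 arrays (horizontal axis; high and low are the diets, numbers the replicates), as signal minus the gene's mean over the arrays (log2 units), 1 point per gene. Right, the means of 5 cell type marker lists on the same scale; low salt replicates 1 and 3 are lowest for the carriers and astrocyte markers and highest for smooth muscle markers.

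Markers of other cell types moved along with this order. The 12 astrocyte markers averaged 10.19, 9.75 and 9.81 on the high salt arrays, against 9.09, 10.06 and 8.47 on the low salt arrays, and low salt replicate 2 was the highest low salt array for 11 of the 12. The 7 markers of fibroblasts and meninges averaged 12.11, 12.44 and 12.35 on high salt and 11.84, 12.38 and 11.95 on low salt, and low salt replicate 2 was the highest low salt array for 4 of the 7. The 8 smooth muscle markers averaged 11.48, 11.38 and 11.31 on high salt and 12.00, 11.12 and 12.02 on low salt, with low salt replicate 2 the lowest low salt array for 8 of 8. The smooth muscle mean was above the upper quartile of all probe sets on every array. The 9 neuron markers averaged 7.45, 7.29 and 7.24 on high salt and 7.09, 7.52 and 6.96 on low salt, with low salt replicate 2 the highest low salt array for 4 and the lowest for 4. The 5 oligodendrocyte markers averaged 8.38, 8.62 and 8.70 on high salt and 8.18, 8.64 and 7.97 on low salt, with replicate 2 the highest low salt array for 4. The means of these 4 brain and meningeal lists were all lowest on low salt replicates 1 and 3. Low salt replicate 2 was the lowest low salt array for 4 of 5 pericyte markers, 4 of 4 pituitary markers and 4 of 4 skeletal muscle markers. The 4 choroid plexus markers averaged 7.51, 7.96 and 7.19 on high salt and 7.81, 7.53 and 7.09 on low salt. For them low salt replicate 2 was the highest low salt array in 0 and the lowest in 3, unlike in the 18 carriers. The 7 endothelial markers averaged 10.08, 9.89 and 10.15 on high salt and 9.84, 9.65 and 10.02 on low salt. Low salt replicate 2 was the lowest low salt array for 4 of them and the highest for 2. The mean of the astrocyte, meningeal, neuron and oligodendrocyte lists thus had the order of the 18 carriers, gene by gene mostly in the astrocyte and oligodendrocyte lists. The means of the muscle, pericyte, pituitary and endothelial lists had low salt replicate 2 at the bottom of their diet. The part of these cells in the carriers' values was not tested, and in whole arteries fewer cells of a type and less RNA per cell cannot be told apart.

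The mean of the list of meningeal and choroid plexus carriers was also lowest on low salt replicates 1 and 3. It was 9.39, 9.84 and 9.52 on high salt and 8.93, 9.75 and 8.34 on low salt. The list holds Slc6a20a, Slc13a4, Slc6a13 and Slc4a10, which were picked above for that order, so the likeness is partly built in. Its members Slc22a8, Slc22a6 and Slc13a3 varied otherwise (below). Of 18 listed, 13 were measured, 11 were higher after high salt, and their median difference was 0.59, or 1.15 without low salt replicate 2 and -0.12 against that array alone; 0 were called. Slc6a20a had 13.15, 13.35 and 13.40 on the high salt arrays, against 11.77, 13.47 and 11.71 on the low salt arrays, a difference of 0.98 ± 0.49 (limma, unadjusted p = 0.0918). Low salt replicate 2 was the highest of its 6 arrays, and a second probe set of the gene gave 1.40 ± 0.92. Slc13a4 had 12.00, 12.84 and 12.27 on high salt and 10.68, 12.58 and 10.09 on low salt, a difference of 1.25 ± 0.66. Slc6a13 had 10.99, 11.97 and 11.39 on high salt and 9.77, 11.77 and 9.59 on low salt, a difference of 1.07 ± 0.63. In both, low salt replicate 2 lay inside the range of the high salt arrays.

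The promoters of Slc13a4 and Slc6a20a are shown as those of the brightest carriers with this order. They come from the same RefSeq table and have the same extent, at chr4:64955937-64956236 and chr8:132199851-132200150, both on the minus strand. Capitals mark CCAAT or GGGCGG on either strand in Slc13a4, and ACGTG on either strand in Slc6a20a.
Slc13a4: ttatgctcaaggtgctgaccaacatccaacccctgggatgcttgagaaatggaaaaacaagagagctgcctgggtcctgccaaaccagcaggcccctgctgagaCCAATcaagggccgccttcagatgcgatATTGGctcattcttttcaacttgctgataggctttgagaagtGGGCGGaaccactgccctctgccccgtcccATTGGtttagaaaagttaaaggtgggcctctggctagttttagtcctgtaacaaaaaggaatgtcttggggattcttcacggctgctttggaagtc
Slc6a20a: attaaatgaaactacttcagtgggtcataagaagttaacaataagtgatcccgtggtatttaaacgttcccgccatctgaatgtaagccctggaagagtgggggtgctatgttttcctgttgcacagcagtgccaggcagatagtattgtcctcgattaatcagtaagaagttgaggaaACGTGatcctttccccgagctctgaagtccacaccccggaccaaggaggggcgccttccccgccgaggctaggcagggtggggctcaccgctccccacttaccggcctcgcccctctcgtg
The Slc13a4 window held 3 CCAAT motifs and 1 GC box, and the Slc6a20a window held 1 ACGTG and neither of the other motifs in capitals. None of these 3 motifs was common to both windows.

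Organic anion carriers of the leptomeninges and choroid plexus varied in another way. Slc22a8, which takes up organic anions in exchange for dicarboxylates, had 11.07, 12.30 and 11.88 on the high salt arrays, against 11.57, 12.26 and 9.64 on the low salt arrays. Slc22a6, its paralogue with a like exchange, had 9.57, 10.26 and 9.74 on high salt and 9.39, 9.59 and 7.94 on low salt. Slc13a3, which brings in the dicarboxylates with sodium, had 10.39, 11.27 and 10.20 on high salt and 10.14, 10.74 and 8.36 on low salt. In all 3 only low salt replicate 3 stood low, more than 1 unit under every other array, and low salt replicate 1 did not. Their differences were 0.59 ± 0.72, 0.88 ± 0.47 and 0.88 ± 0.66, and that of Slc22a8 was -0.16 without low salt replicate 3; Slc22a6 and Slc13a3 were picked after their values were seen. Of the 18 organic anion, cation and bile acid carriers, 11 were higher, the median was 0.05, or 0.07, 0.03 and -0.02 with low salt replicates 1, 2 and 3 left out in turn, and 0 had an unadjusted p below 0.05.

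Slc22a18, an orphan of the organic cation family, was lower on all high salt arrays, with 9.54, 9.71 and 9.65 on high salt and 10.31, 9.72 and 9.89 on low salt. The difference was -0.34 ± 0.17, and the diets were kept apart by a narrow gap between their replicates 2. Slc22a3, which clears catecholamines outside neurons, had a mean signal of 6.67, near the lower quartile, and a difference of -0.70 ± 0.32 with overlapping diets. Outside the family by symbol, 12 of 16 listed Slco organic anion carriers were measured, and 4 were higher. Of the 12, 2 (16.7%) had every high salt array above, Slco2a1 and Slco2b1, against 8.64% of all genes. Every high salt array was below for 1 (8.33%), the dim Slco1a6, against 3.32% of all genes. Slco2a1, the prostaglandin carrier, had 10.34, 10.09 and 10.35 on the high salt arrays, against 8.83, 9.87 and 8.43 on the low salt arrays. Its difference was 1.22 ± 0.37, but low salt replicate 2 was more than 1 unit above low salt replicates 1 and 3. The size of that difference thus rested mostly on low salt replicates 1 and 3. Slco2b1 differed by 0.35 ± 0.13 and Slco1a6 by -0.08 ± 0.08.

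Among glucose carriers, Slc2a1, the glucose uniporter of the blood-brain barrier, had 10.82, 10.81 and 11.05 on the high salt arrays, against 10.78, 10.03 and 11.01 on the low salt arrays. The diets overlapped, and the difference of 0.29 ± 0.27 was -0.0033 without low salt replicate 2, which was its lowest array. Slc2a4, the insulin-responsive glucose carrier of muscle and fat, had 8.36, 8.62 and 8.22 on high salt and 8.67, 8.80 and 9.11 on low salt. All high salt arrays were below all low salt arrays, at a difference of -0.46 ± 0.17 (limma, unadjusted p = 0.0324, adjusted p = 0.803), and the gene's second probe set gave -0.26 ± 0.22. The 8 smooth muscle markers were lower on high salt as well, in 8 of 8 genes with a median of -0.15, and the part of muscle in the Slc2a4 difference was not tested. Of the 14 glucose and hexose carriers 9 were higher, and the median was 0.05, or 0.01, 0.01 and -0.00 with low salt replicates 1, 2 and 3 left out in turn. Of the 14, 1 (7.14%), Slc2a4, had an unadjusted p below 0.05, while 0.711% of all genes were lower at that p.

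Amino acid carriers lay around 0, with 16 of 31 higher, a median of 0.00 and 0 with an unadjusted p below 0.05. Slc3a2 was the only one of the 31 with no overlap (3.23%), while 8.64% of all genes had every high salt array above. It had 12.03, 11.87 and 12.18 on the high salt arrays, against 11.82, 11.81 and 11.57 on the low salt arrays, a difference of 0.29 ± 0.13. Its best known partner Slc7a5, the large neutral amino acid carrier of the blood-brain barrier, had 7.38, 7.14 and 7.37 on high salt and 7.23, 7.21 and 7.21 on low salt, a difference of 0.08 ± 0.10 at a signal below the median. Slc7a1, which brings arginine into endothelium, had 9.75, 9.73 and 9.74 on high salt and 9.93, 9.53 and 9.87 on low salt, a difference of -0.04 ± 0.13, and its second probe set gave 0.36 ± 0.26. The arrays of Slc7a5 and Slc7a1 overlapped between diets, and a contrast of either with Slc3a2 was not tested.

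Slc38a2, which cells raise when short of amino acids or under hypertonic stress, had 12.19, 12.30 and 12.15 on the high salt arrays, against 9.99, 12.58 and 11.03 on the low salt arrays. The high salt arrays lay within 0.15 of each other, the low salt arrays spread over 2.59, and the difference was 1.01 ± 0.63. Slc6a6, the sodium-coupled taurine carrier, had 10.33, 8.51 and 10.02 on high salt and 10.68, 10.35 and 10.17 on low salt. Here a single high salt array, replicate 2, stood low, the widest range on high salt in the family at 1.82, and the difference of -0.78 ± 0.49 was -0.23 without it. A dim second probe set of Slc6a6 gave -0.00 ± 0.29.

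Slc6a6 is a known target of the tonicity-responsive factor Nfat5, so its promoter is shown with the match to that factor's element (TonE, both strands) in capitals. It is from the same RefSeq table, at chr4:125752252-125752551 on the plus strand.
Slc6a6: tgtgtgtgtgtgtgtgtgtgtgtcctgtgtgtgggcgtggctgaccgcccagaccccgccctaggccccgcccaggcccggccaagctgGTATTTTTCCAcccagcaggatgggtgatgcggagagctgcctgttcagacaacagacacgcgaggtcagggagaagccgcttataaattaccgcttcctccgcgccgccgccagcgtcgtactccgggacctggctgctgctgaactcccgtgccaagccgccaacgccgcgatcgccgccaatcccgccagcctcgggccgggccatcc
The window held 1 match, and 8 of the 201 carrier promoters (3.98%) held any, against 5.98% of all 33469 promoters, again not restricted to genes of the array. Neither Slc6a6 nor Slc38a2 passed the test, and the direction of Slc38a2 turned to -0.37 against low salt replicate 2 alone, where Slc6a6 was -0.73.

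Phosphate carriers of the arterial wall were represented by Slc20a1 and Slc20a2, sodium-coupled carriers studied in vascular calcification. Slc20a1 had 10.84, 10.62 and 11.10 on the high salt arrays, against 9.41, 10.72 and 10.40 on the low salt arrays, and Slc20a2 had 10.92, 10.85 and 11.15 on high salt and 9.76, 11.04 and 10.52 on low salt. In both, low salt replicate 1 was the lowest array and replicate 2 lay among the high salt arrays, so the differences of 0.68 ± 0.36 and 0.54 ± 0.32 came with overlap. A dimmer probe set of Slc20a2 gave -0.18 ± 0.21. Of the 10 phosphate, sulphate and dicarboxylate carriers 5 were higher, with a median of 0.00.

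Neurotransmitter carriers were mostly dim and lower, 11 of 14 with a median of -0.05. Slc6a2 takes noradrenaline back into sympathetic nerve endings, which run in the arterial wall; it had 7.20, 7.37 and 7.35 on the high salt arrays, against 7.81, 7.47 and 7.69 on the low salt arrays. The high salt arrays all lay below the low salt arrays, at a difference of -0.35 ± 0.12 (limma, unadjusted p = 0.0313, adjusted p = 0.803), at a signal below the median of all probe sets. Slc17a6, a vesicular glutamate carrier, was the other neurotransmitter carrier with no overlap, at -0.25 ± 0.13. The remaining carriers with all high salt arrays below were the dim Slc13a1, Slc10a2, Slc23a3, Slc26a5 and Slc15a1, named because they complete the count of 9, with differences of -0.26 to -0.10. Below the median signal 36 of 97 carriers were higher, with a median of -0.04, against -0.03 for all genes below it, and above the median 101 of 128 were higher, with a median of 0.23, against 0.21 for all genes above it. The mostly lower values of dim carriers were thus those of dim genes in general.

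Of 25 metal carriers 20 (80%) were higher, against 73.3% of all genes above the median signal, where 21 of the 25 lay. Of the 25, 3 (12%) had an unadjusted p below 0.05, all higher, against 5.72% of all genes and 8.00% of all genes above the median signal, and 0 were called. Their median was 0.16, or 0.07, 0.25 and 0.22 with low salt replicates 1, 2 and 3 left out in turn, 0.03 after median centring and -0.02 against low salt replicate 2 alone. Slc39a7, which releases zinc from the endoplasmic reticulum, had 9.99, 10.19 and 9.80 on the high salt arrays, against 9.06, 9.54 and 9.17 on the low salt arrays. The diets did not overlap and were 0.74 ± 0.17 apart (limma, unadjusted p = 0.00546). Slc30a5 loads zinc into the secretory pathway, and had 9.18, 9.43 and 9.50 on high salt and 7.99, 9.16 and 8.65 on low salt. It did not overlap by the narrow gap between high salt replicate 1 and low salt replicate 2, at a difference of 0.77 ± 0.30. Slc41a3, of a magnesium carrier family, had 8.95, 8.14 and 8.70 on high salt and 7.76, 8.02 and 7.79 on low salt, a difference of 0.74 ± 0.22 with no overlap. Its paralogue Slc41a1, a sodium-magnesium exchanger, differed by 0.32 ± 0.33 with overlap, and Slc40a1, the iron exporter ferroportin, by 0.04 ± 0.16.

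Among nucleoside and nucleotide sugar carriers, 13 of 18 (72.2%) were higher, with a median of 0.18. Of all genes above the median signal, where 14 of the 18 lay, 73.3% were higher, with a median of 0.21. The carriers' median was 0.17, 0.14 and 0.19 with low salt replicates 1, 2 and 3 left out in turn. It depended on the scaling, as quantile normalization brought it to 0.01 and centring of the arrays to 0.05. Of the 18, 4 (22.2%) had an unadjusted p below 0.05, against 5.72% of all genes and 8.00% of all genes above the median signal, and 0 were called. Slc29a1, the equilibrative carrier that clears adenosine, a vasodilator, had 9.81, 9.12 and 9.86 on the high salt arrays, against 8.58, 8.09 and 8.99 on the low salt arrays. The diets did not overlap, the difference was 1.05 ± 0.30 (limma, unadjusted p = 0.0140, adjusted p = 0.803), and low salt replicate 2 was its lowest array, unlike in the 18 carriers above. Without that array the difference of Slc29a1 was 0.82. The gene is also known from red blood cells, and the 2 red blood cell markers measured averaged 12.54, 12.04 and 12.86 on high salt and 11.18, 11.79 and 11.67 on low salt, with every high salt mean above every low salt mean. Of the 5 measured red blood cell carriers 4 were higher, with a median of 0.33, or 0.38, 0.21 and 0.25 with low salt replicates 1, 2 and 3 left out in turn, and the part of blood left in the arteries was not tested. Slc35b2, which carries the sulphate donor of the Golgi, and the orphan Slc35e1 also had all high salt arrays above, at 0.36 ± 0.14 and 0.36 ± 0.12. Slc35a2, which carries UDP-galactose, differed by 0.35 ± 0.14 with overlap. Slc35b1 of the endoplasmic reticulum was the brightest of the list and differed by -0.40 ± 0.22, while its second probe set gave 0.09 ± 0.19.

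Some carriers of the Slc16 family, named for monocarboxylates, move lactate, pyruvate and ketone bodies with protons, and others have other substrates. Slc16a1, known from brain endothelium and glia, had 8.96, 8.82 and 9.55 on the high salt arrays, against 8.05, 9.83 and 7.62 on the low salt arrays. Low salt replicate 2 was above all other arrays, and the difference was 0.61 ± 0.59. Slc16a7, the higher affinity lactate carrier of neurons, differed by -0.46 ± 0.25, and Slc16a12, a creatine carrier, by 0.43 ± 0.49, both with overlap. Of the 7 Slc16 genes, listed by symbol and not by substrate, 6 were higher, with a median of 0.23. That median was 0.38, 0.23 and 0.14 with low salt replicates 1, 2 and 3 left out in turn and -0.29 against low salt replicate 2 alone. Of the 7, 0 had an unadjusted p below 0.05.

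Of 17 vitamin, choline, fatty acid and lipid carriers, 12 were higher with a median of 0.10, or 0.16, 0.13 and 0.09 with low salt replicates 1, 2 and 3 left out in turn. Slc27a4, a fatty acid transport protein, had 10.31, 10.34 and 10.36 on the high salt arrays, against 10.07, 10.18 and 10.14 on the low salt arrays, a difference of 0.20 ± 0.09 with no overlap and with ranges of 0.05 on high salt and 0.10 on low salt. Its direction followed the scaling, since quantile normalization turned the difference to -0.047 and median centring left 0.07. Slc5a6, the sodium-coupled carrier of biotin and pantothenate, differed by 0.65 ± 0.41, and the lysosomal histidine and peptide carrier Slc15a4 by 0.44 ± 0.22, both with overlap. Slc4a1ap, named after the red cell anion exchanger it binds and not itself a carrier, differed by 0.46 ± 0.23.

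By the cells they are known from, 11 of 12 measured carriers of the blood-brain barrier endothelium (91.7%) were higher, against 6250 of all 10411 genes and 73.3% of those above the median signal, where 10 of the 12 lay. After median centring 8 of the 12 were higher. Their median was 0.40, or 0.36, 0.39 and 0.19 with low salt replicates 1, 2 and 3 left out in turn and 0.06 against low salt replicate 2 alone. Of 9 astrocyte carriers 5 were higher, with a median of 0.10, or -0.01, 0.12 and -0.07 with low salt replicates 1, 2 and 3 left out in turn. Of 20 neuronal carriers 5 were higher, with a median of -0.03. The endothelial markers were higher in 5 of 7, with a median of 0.13, but the 2 endothelial lists ordered the low salt arrays differently. The barrier carriers averaged 9.12, 9.70 and 9.05 on low salt replicates 1, 2 and 3, and the markers 9.84, 9.65 and 10.02. None of these carriers was called. Of 17 measured partners and regulators of carriers outside the family, 13 were higher and 0 called. Their median was 0.51, or 0.19, 0.79 and 0.51 with low salt replicates 1, 2 and 3 left out in turn and 0.04 against low salt replicate 2 alone. Among the 17, 4 (23.5%) had no overlap upwards and 1 (5.88%) downwards, against 8.64% and 3.32% of all genes. Of all genes above the median signal, where 14 of the 17 lay, the shares were 11.4% and 1.60%. Every high salt array was above every low salt array for Atf4, which drives amino acid carrier genes, at 0.90 ± 0.27, for Ezr, which anchors carriers to actin, at 0.87 ± 0.32, for Nedd4l, which marks carriers for removal, at 0.51 ± 0.16, and for Wnk1, a kinase that sets chloride carriers, at 0.68 ± 0.35. Stk39, the kinase that acts on Slc12a2, was lower on all high salt arrays, at -0.21 ± 0.10.

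Of the 225 carriers 37 had several probe sets, with 49 probe sets beside those used, and 19 of the 49 had the opposite sign. Near-identical paralogues such as Slc25a4 and Slc25a5 may share part of their signal, which was not tested.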

How the data were processed

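RNA of cerebral arteries was hybridised to Affymetrix rat arrays, 1 per pool, 3 high salt and 3 low salt. The deposited log2 values were made by the authors with RMA, per the submitters' processing notes. For its version, the sources used here give none, and base 2 was read from the values. The 57 control probe sets were left out, which left 15866, of which 12783 had 1 gene symbol (10411 genes). All 225 carriers matched RefSeq (GRCr8) by Entrez identifier, with 0 symbols changed; 2 probe sets with several symbols were left out. limma 3.58.1 in R 4.3.3 (lmFit, eBayes, no block) was fitted over all probe sets with Benjamini-Hochberg adjustment and tested on simulated data. The replicates are pools of separate rats, and 3 arrays per diet limit the precision.

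The members, lists and markers were chosen with earlier results of these data known, and functional lists follow symbol patterns, which put Slc6a20a outside the amino acid list. Named were up to 12 carriers per direction with the lowest p among those above the median signal with no overlap, the brightest and the lowest-p carrier of each functional list, and a fixed list of carriers; this gave 42. Alternatives changed scaling, filter, variances, array weights, block, arrays and probe set choice.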

Additional observations from a re-analysis of the deposited data

How the results depend on the processing

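In every setting tried 0 carriers were called by limma, but counts at an unadjusted p below 0.05 moved with single arrays. The count, 16 with all arrays, was 10 after removing probe sets below the 40th percentile of mean value, 40 with array weights, and 5 to 60 without 1 array. Leaving out replicate 1, 2 or 3 of high salt gave 5, 12 and 11 (2.22%, 5.33% and 4.89%), against 2.68%, 4.43% and 5.26% of all genes. For low salt the counts were 10, 60 and 5 (4.44%, 26.7% and 2.22%), against 4.32%, 19.99% and 5.73% of all genes. The lowest adjusted p of a carrier ran from 0.0501 to 0.999 over the settings. The median difference was -0.0755 after median centring, -0.0200 after quantile normalization, 0.19 after the filter, and 0.03 to 0.07 without 1 array.

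With the replicate number as a block the count was 19. No pairing by number was seen, as same-numbered arrays deviated from their diet means with correlations of 0.04, -0.27 and 0.04. Arrays of different numbers ran from -0.39 to 0.37. Deviations from a mean of 3 arrays constrain each other, so these values cannot exclude a pairing.

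Of 42 named carriers 23 kept their sign in each of the 14 settings that measured them; the filter leaves 39 of the 42. After median centring Slc40a1 was -0.086 and Slc7a5 -0.050, and after quantile normalization Slc27a4 was -0.047 and Slc40a1 -0.185. Against low salt replicate 2 alone the values were Slc12a2 -0.49, Slc13a4 -0.21, Slc16a1 -0.72, Slc16a12 -0.59, Slc20a2 -0.057, Slc22a8 -0.51, Slc25a3 -0.52, Slc38a2 -0.37, Slc40a1 -0.21, Slc41a1 -0.27, Slc4a4 -0.59, Slc5a6 -0.28, Slc6a13 -0.32, Slc6a20a -0.17 and Slc7a1 0.21. With all probe sets of a gene averaged Slc7a1 was 0.10. Without 1 array each, the ranges were Slc12a2 -0.020 to 0.63, Slc16a12 -0.025 to 0.94, Slc22a8 -0.16 to 1.15, Slc25a3 -0.15 to 0.70, Slc2a1 -0.0033 to 0.49, Slc40a1 -0.056 to 0.17, Slc41a1 -0.019 to 0.62, Slc4a7 -0.36 to 0.17 and Slc7a1 -0.16 to 0.040. The cause of these turns was not tested.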
